A study of Homo sapiens with 6 samples.

Results

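The RNA levels of 10 genes of the transforming growth factor beta (TGF-beta) and YAP pathways were examined in MDA-MB-231 cells, a long-established line from a human triple-negative breast adenocarcinoma, after treatment with guadecitabine (SGI-110). The members were chosen by symbol from the deposited table, and 10 of 10 were found among its 17100 transcripts, with CTGF (CCN2) and CYR61 (CCN1) under their older symbols. They were the ligands TGFB1 and TGFB2, the signal transducer SMAD3, the inhibitors SMAD7 and SKIL, the TGF-beta target TGFBI, and the YAP targets CTGF, CYR61, ANKRD1 and AMOTL2. Guadecitabine is a dinucleotide prodrug of decitabine and inhibits DNA methyltransferases. The treated cells received 1 µM guadecitabine for 96 h and were left without drug for another 24 h, and the control cells received vehicle, with 3 libraries in each group. The labels do not name the vehicle. According to the methods of the study, the RNA came from independent experiments, all with the same line. The comparison asks how this treatment changed the RNA of the pathway genes.

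TGF-beta ligands are secreted in a latent form and, once released, bind a pair of receptor kinases that phosphorylate SMAD2 and SMAD3, which enter the nucleus with SMAD4. SMAD7 blocks the receptors, SKIL (SnoN) represses SMAD-dependent transcription, and the SKIL and SMAD7 genes are themselves turned on by the pathway as negative feedback. YAP and its relative TAZ are co-activators that bind DNA through TEAD factors and are held back by the Hippo kinases, and CTGF, CYR61 and ANKRD1 are widely read as their targets. In breast cancer both pathways are known for their part in invasion and metastasis, and CTGF responds to either of them.

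Library totals ranged from 17602570 to 22277442 counts in vehicle and from 8792127 to 21410849 in guadecitabine, and guadecitabine replicate 2 was the shallowest library. Vehicle replicate 3 stood apart, since 20 transcripts were at 0 counts in it against 2498 and 2517 in vehicle replicates 1 and 2. Its background was read from 533 genes that had no more than 1 count in either of the other vehicle libraries but 11 or more in the guadecitabine libraries together, where it held a median of 7.10 counts per kb of exon. A background of that size would be 47.6 counts, or 20.3% of the reads, for SKIL in that library, 9.52% for SMAD7 and at most 1.42% for each of the other members. Values without this library are given beside the called members and where they change a call or a count by much. The luminal markers ESR1 and PGR had at most 1 count outside vehicle replicate 3, while VIM, an intermediate filament of mesenchymal cells, had 53203 to 54871 normalized counts in vehicle and 62839 to 76255 after guadecitabine. Other luminal markers were abundant, with vehicle means of 20932 normalized counts for KRT8, 15606 for KRT19 and 11651 for KRT18. The summed luminal markers had 45587 to 51605 normalized counts in vehicle and 28154 to 38098 after guadecitabine. Of the 6 luminal markers tested, 1 was higher and 4 lower after guadecitabine, and of the 7 mesenchymal and basal markers 2 were higher and 2 lower, or 1 and 2 without vehicle replicate 3, where VIM did not pass (edgeR, adjusted p = 0.0557). Of the fibroblast, leukocyte and endothelial markers, 5, 3 and 4 genes were tested, of which 1 in each list was higher (COL1A1, CD68 and KDR), and COL1A2 and PDGFRB were lower. Without vehicle replicate 3, 3 fibroblast markers were higher, with LUM and PDGFRA added, and 3 endothelial markers, with PECAM1 and TEK added. Over all 13322 genes tested with every library, 19.3% were higher and 18.4% lower after guadecitabine. The summed fibroblast markers went from 1048 to 1512 normalized counts in vehicle to between 2250 and 2993, the leukocyte markers from between 2969 and 3422 to between 7184 and 7508, and the endothelial markers from between 118 and 263 to between 260 and 331. The defining markers PTPRC and DCN had at most 4 counts outside vehicle replicate 3. In bulk RNA, fewer cells with a transcript and less of it per cell cannot be told apart. The part of these markers in the results was not tested.

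After guadecitabine, ANKRD1, SKIL and SMAD3 rose, TGFB2 fell, and the remaining 6 genes did not pass the threshold of an adjusted p of 0.05. Over all 13322 genes tested with edgeR, 37.7% were called, 19.3% as higher and 18.4% as lower, so that 4 called of 10 was near the background. ANKRD1 and SKIL passed and changed by at least 2-fold, against 12.3% of all genes, but without guadecitabine replicate 1 both were under 2-fold, with log2 fold changes of 0.91 and 0.86. The groups did not overlap in 6 of 10 members, 5 higher and 1 lower after guadecitabine, against 51.7% of all genes tested, 26.6% higher and 25.0% lower. The median log2 fold change of the members was 0.09 and that of all genes 0.02. With 3 against 3 libraries, the exact two-sided permutation test cannot give a p below 0.1, and it gave 0.1 for each member without overlap. Each member passed the filter on low counts, and the lowest count of a member in any library was 114. Normalized counts below are the reads scaled by TMM (trimmed mean of M values) to a common depth of 17162479 reads.

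**Figure D1:**
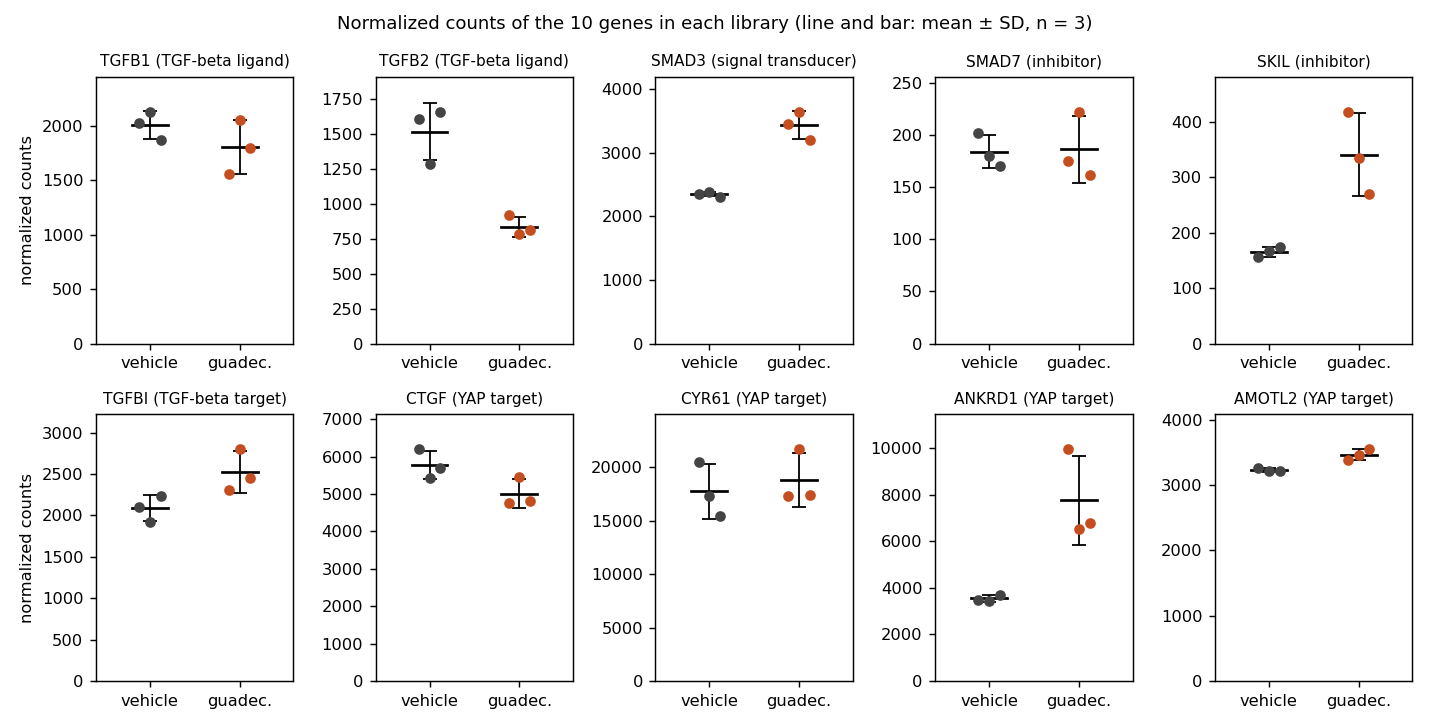
Normalized counts of each gene in the 3 vehicle and the 3 guadecitabine libraries, on axes that start at 0, with the mean and SD of 3 libraries as line and bar. The guadecitabine libraries lie above the vehicle libraries for SMAD3, SKIL, TGFBI, ANKRD1 and AMOTL2 and below them for TGFB2, and the groups overlap for TGFB1, SMAD7, CTGF and CYR61.

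TGFB1 encodes the most widely studied TGF-beta ligand and lies at chr19:41836436-41859838 on the minus strand of hg19. It had 2021, 2125 and 1871 normalized counts in vehicle replicates 1, 2 and 3 and 1559, 2052 and 1795 after guadecitabine. The lowest value was that of guadecitabine replicate 1, and the groups overlapped. The log2 fold change was -0.16 (standard error, SE, 0.12, 95% confidence interval -0.44 to 0.12, adjusted p = 0.349 in edgeR). The interval reached from 0.740-fold to 1.09-fold.

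TGFB2 encodes a second TGF-beta ligand, which binds its receptors with the help of the co-receptor TGFBR3, and it lies at chr1:218518676-218617961 on the plus strand. It had 1609, 1287 and 1660 normalized counts in vehicle and 919, 782 and 814 after guadecitabine. Each guadecitabine library was below each vehicle library, and the lowest vehicle value, that of replicate 2, was the nearest to them. TGFB2 fell from 1519 ± 202 to 838 ± 71.9 normalized counts (SD, n = 3), to 55.3% of the vehicle level (log2 fold change -0.85, SE 0.13, adjusted p = 0.000931 in edgeR). Without vehicle replicate 3 the log2 fold change was -0.79 (edgeR, adjusted p = 0.00129). The counts of TGFB2 cover 4369 bp of exon, and how much of that is shared with other transcripts was not measured. In the larger GENCODE annotation, 701 of the 6050 bp of TGFB2 exons are shared with the antisense transcript TGFB2-AS1 and 1371 bp with TGFB2-OT1 on the same strand, whose reads no strand setting would separate from those of TGFB2. Reads of opposite strands could not be told apart either, since no strand setting of the kit or the counting was given in the sources used here. The ratio of the ligands was also taken within each library. The level of TGFB1 per kb was 2.13, 2.79 and 1.91 times that of TGFB2 in the vehicle libraries and 2.87, 4.44 and 3.73 times after guadecitabine, without overlap (p = 0.1 by the exact permutation test, two-sided). Vehicle replicate 2 and guadecitabine replicate 1 were close, and this ratio repeats the fall of TGFB2 rather than adding to it.

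SMAD3, which carries the TGF-beta signal to the nucleus and binds DNA, lies at chr15:67358195-67487533 on the plus strand. It had 2353, 2380 and 2307 normalized counts in vehicle and 3452, 3639 and 3204 after guadecitabine. The vehicle libraries lay close together and all guadecitabine libraries were above them. SMAD3 rose 1.46-fold, from 2347 ± 36.6 to 3432 ± 218 normalized counts (SD, n = 3) (log2 fold change 0.55, SE 0.10, edgeR adjusted p = 0.00220). Leaving out each library in turn gave values between 0.51 and 0.59, with 0.54 without vehicle replicate 3 (edgeR, adjusted p = 0.00380).

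SKIL encodes SnoN, a repressor that binds SMAD proteins and is degraded when the pathway is active, and it lies at chr3:170075473-170114637 on the plus strand. It had 156, 167 and 174 normalized counts in vehicle and 418, 335 and 269 after guadecitabine. All guadecitabine libraries were above the vehicle libraries, with the highest value in replicate 1. SKIL rose 2.06-fold, from 166 ± 9.0 to 341 ± 74.8 normalized counts (SD, n = 3) (log2 fold change 1.04, SE 0.17, edgeR adjusted p = 0.00159). Without vehicle replicate 3, the library in which background reads would weigh the most, it was 1.08 (edgeR, adjusted p = 0.00190), and without guadecitabine replicate 1 it was 0.86.

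SMAD7, the inhibitor that acts at the receptors, lies at chr18:46446223-46477081 on the minus strand. It had 202, 180 and 170 normalized counts in vehicle and 175, 222 and 162 after guadecitabine. The highest and the lowest of the 6 values were both from guadecitabine libraries, so that the groups overlapped. The log2 fold change was 0.00 (95% confidence interval -0.37 to 0.38, adjusted p = 0.988 in edgeR), an interval that reaches from 0.775-fold to 1.30-fold. The ratio of SKIL to SMAD7, both known as feedback genes of the pathway, was also taken within each library. The level of SKIL per kb was 0.356, 0.426 and 0.470 times that of SMAD7 in the vehicle libraries and 1.10, 0.694 and 0.765 times after guadecitabine, again without overlap (two-sided exact permutation test, p = 0.1). This ratio repeats the rise of SKIL rather than adding to it.

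TGFBI, a secreted matrix protein named for its induction by TGF-beta, lies at chr5:135364584-135399507 on the plus strand. It had 2107, 1924 and 2233 normalized counts in vehicle and 2305, 2800 and 2456 after guadecitabine. The groups did not overlap, but vehicle replicate 3 and guadecitabine replicate 1 were close. The log2 fold change of 0.27 (SE 0.11, 95% confidence interval 0.01 to 0.53) did not pass in edgeR, with an adjusted p of 0.0906. Before adjustment the value was 0.0408, and the exact permutation test gave 0.1.

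The promoters of the YAP targets are shown for the TEAD core motif GGAATG, since TEAD factors bring YAP to DNA. Promoter windows from RefSeq, on build GRCh38.p14, reach from 250 bases before to 50 bases after each start, and 9 of the 10 genes had a window. The motif was searched on both strands, so that it can read CATTCC below, and capitals mark it. Of all 35116 windows, 14.0% held it and 1.37% held at least 2. The CTGF window held 3, the ANKRD1 window 2, and the TGFB2 window and 1 of the 2 AMOTL2 windows 1 each. None of the windows of TGFB1, SMAD3, SMAD7, SKIL and TGFBI held it, in 11 windows in all, and no CYR61 window was among the sequences used here. The SMAD motif CAGACA stood in 4 of the 16 member windows, those of TGFB2, ANKRD1, 1 of SMAD3 and 1 of AMOTL2, against 16.9% of all windows, and the AP-1 motif TGACTCA in 1, of SMAD3, against 4.95%. A match is a stretch of letters and was not tested as a binding site. The AMOTL2 match stood before 1 of its 2 starts, and the starts were not matched to the transcript that was counted. The stretches of 30 bases, 5′ to 3′ on the strand of the gene, lie before the start site, with the first base of the motif at -104 bp for the first of the pair in CTGF (chr6:131951455-131951484), at -220 bp and -128 bp in ANKRD1 (chr10:90921290-90921319 and chr10:90921198-90921227), at -69 bp in AMOTL2 (chr3:134374499-134374528) and at -185 bp in TGFB2 (chr1:218345139-218345168).
CTGF: ggtggggaGGAATGcgaGGAATGtccctgt
ANKRD1, distal: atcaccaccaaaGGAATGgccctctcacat
ANKRD1, proximal: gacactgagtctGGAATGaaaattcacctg
AMOTL2: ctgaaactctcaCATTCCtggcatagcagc
TGFB2: tgtcagggcgcaCATTCCacctccttcctc

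The genes with the motif differed in their changes. ANKRD1, an ankyrin repeat protein of muscle that also acts as a transcriptional cofactor, lies at chr10:92671857-92681032 on the minus strand. It had 3501, 3425 and 3712 normalized counts in vehicle and 9968, 6535 and 6807 after guadecitabine. All guadecitabine libraries were well above the vehicle libraries, and replicate 1 was the highest. ANKRD1 rose 2.19-fold, from 3546 ± 149 to 7770 ± 1909 normalized counts (SD, n = 3) (log2 fold change 1.13, SE 0.16, edgeR adjusted p = 0.000653), the largest rise among the members. Without guadecitabine replicate 1 it was 0.91 and without vehicle replicate 3 it was 1.17. Of its relatives among the muscle ankyrin repeat proteins, ANKRD23 had a log2 fold change of -0.61 and did not pass (adjusted p = 0.311 in edgeR), and ANKRD2 was too low to be tested.

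CTGF and CYR61 are secreted matricellular proteins of the CCN family, which bind integrins and growth factors. CTGF, at chr6:132269317-132272518 on the minus strand, had 6199, 5442 and 5688 normalized counts in vehicle and 4753, 5460 and 4822 after guadecitabine. Guadecitabine replicate 2 lay within the vehicle range, and the log2 fold change was -0.21 (95% confidence interval -0.44 to 0.03, adjusted p = 0.15 in edgeR). Of its 2337 bp of GENCODE exons, 278 are shared with LINC01013 on the opposite strand. CYR61, at chr1:86046444-86049648 on the plus strand, had 20537, 17311 and 15479 normalized counts in vehicle and 17323, 21709 and 17379 after guadecitabine. These values were spread over the same range in both groups, and the log2 fold change was 0.08 (95% confidence interval -0.22 to 0.38, adjusted p = 0.671 in edgeR). It was -0.01 without vehicle replicate 3 and -0.03 without guadecitabine replicate 2. For these 2 genes, rises as large as that of ANKRD1 lay outside the intervals, whose upper ends were 1.02-fold for CTGF and 1.31-fold for CYR61. Within each library, the level of ANKRD1 per kb was 0.670, 0.747 and 0.775 times that of CTGF in vehicle and 2.49, 1.42 and 1.68 times after guadecitabine (no overlap, two-sided exact permutation test, p = 0.1). This ratio repeats the rise of ANKRD1. The level of CYR61 per kb was 3.39, 3.25 and 2.78 times that of CTGF in vehicle and 3.72, 4.06 and 3.68 times after guadecitabine. That ratio did not overlap either (two-sided exact permutation test, p = 0.1), although neither gene passed.

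AMOTL2, an angiomotin that binds YAP and is both its target and its inhibitor, lies at chr3:134074187-134094259 on the minus strand. It had 3260, 3218 and 3218 normalized counts in vehicle and 3379, 3465 and 3550 after guadecitabine. The groups did not overlap, with a coefficient of variation of 0.751% in vehicle, the smallest among the members, but the change was only 1.07-fold. The log2 fold change of 0.10 (95% confidence interval -0.10 to 0.30, adjusted p = 0.412 in edgeR) did not pass.

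**Figure D2:**
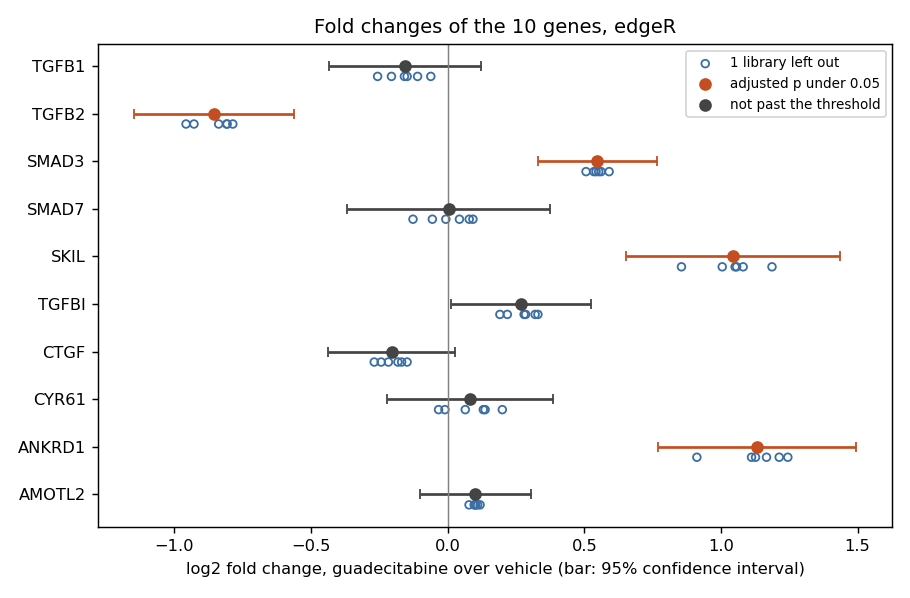
Log2 fold change of guadecitabine over vehicle for each gene from the edgeR fit, with its 95% confidence interval as bar and the values with 1 library left out as open circles. TGFB2 at -0.85 and SMAD3, SKIL and ANKRD1 at 0.55, 1.04 and 1.13 keep their side of 0 in each of the 6 refits, while the circles of SMAD7 and CYR61 fall on both sides.

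Levels between the genes were compared per kb of counted exon. In vehicle, CYR61 was the most abundant member, with 7752 ± 1117 normalized counts per kb (SD, n = 3), followed by CTGF with 2465 ± 165 and ANKRD1 with 1796 ± 75.4. These YAP targets were apart from each other and from the remaining genes, as no libraries of neighbours in this order overlapped. TGFB1, TGFBI and AMOTL2 formed the middle, with 776 ± 49.5, 744 ± 55.2 and 647 ± 4.86, and the libraries of TGFB1 and TGFBI overlapped. SMAD3, with 376 ± 5.88, and TGFB2, with 348 ± 46.3, overlapped as well. The inhibitors SMAD7 and SKIL were the lowest, with 59.7 ± 5.22 and 24.7 ± 1.34 normalized counts per kb.

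After guadecitabine ANKRD1 passed CTGF in this order, with 3936 ± 967 against 2139 ± 166 normalized counts per kb (SD, n = 3), without overlap of the libraries. SMAD3, with 550 ± 35, and TGFB2, with 192 ± 16.5, no longer overlapped and differed 2.87-fold. At the lower end, SKIL, with 50.8 ± 11.1, overlapped with SMAD7, with 60.4 ± 10.4. TGFB1, with 698 ± 95.4, overlapped with AMOTL2, with 694 ± 17.1, and TGFBI, with 899 ± 90.5, stood above both.

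**Figure D3:**
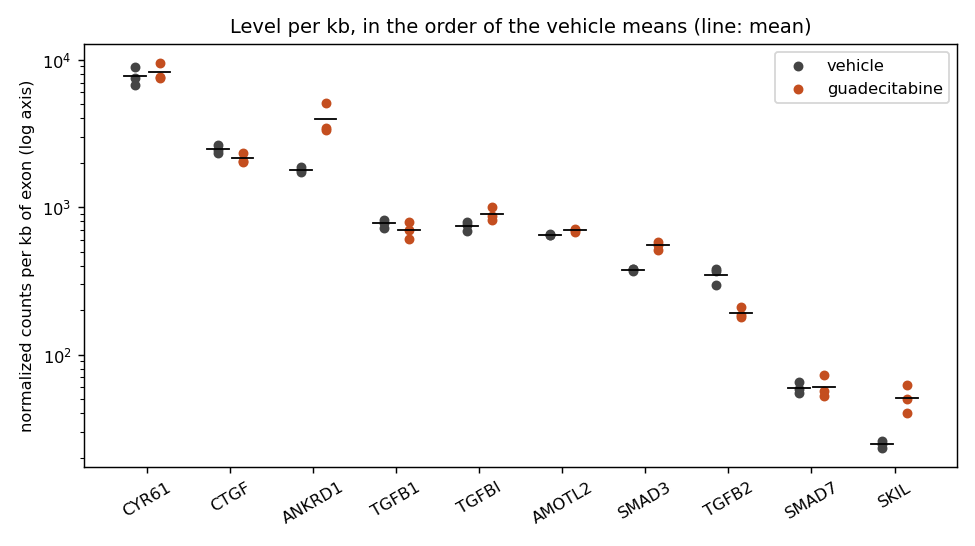
Normalized counts per kb of counted exon in each library on a log axis, with genes in the order of their vehicle means and a line at the mean of 3 libraries. CYR61 is the highest in both groups, ANKRD1 moves above CTGF after guadecitabine, and SKIL moves up to the range of SMAD7.

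The other genes of the pathways were taken from lists, of which 107 genes that were no members were tested, with 32 higher and 20 lower. For this count and that of each list below, the shares over all 13322 genes tested were 19.3% higher and 18.4% lower. The counts were not tested against these shares. Of the called genes, those with a change under 2-fold were named after their values were seen, apart from the core effectors, as were the marker genes. Among 15 genes for ligands, latency proteins and activators, 3 rose and 5 fell. INHBA, a subunit of activin A, rose from 38.5 ± 19.2 to 341 ± 37.0 normalized counts (SD, n = 3, log2 fold change 3.11, and 3.63 without vehicle replicate 3), and the integrin ITGAV (0.50 on the log2 scale) and the protease FURIN (0.41) were the others that passed, FURIN with an adjusted p of 0.0821 without vehicle replicate 3 and also not passing without vehicle replicates 1 or 2 or guadecitabine replicates 2 or 3. Without vehicle replicate 3 the number that rose was 4, since LRRC32, which anchors latent TGF-beta at the cell surface, and the integrin subunit ITGB6 then passed (edgeR, adjusted p = 0.000831 and 0.00232). LRRC32 had 1, 2 and 18 reads in vehicle and 21, 14 and 20 after guadecitabine, and ITGB6 had 0, 2 and 32 reads in vehicle and 20, 7 and 15 after guadecitabine. The genes that fell were TGFB2, INHBB, the subunit of activin B, with -1.69, and the latent TGF-beta binding proteins LTBP1, LTBP4 and LTBP3, with -1.33, -0.60 and -0.44. The third ligand, TGFB3, had 67.9 ± 24.1 and 67.1 ± 13.4 normalized counts (adjusted p = 0.994 in edgeR). Without vehicle replicates 1 or 2 or guadecitabine replicates 1 or 3, LTBP3 and LTBP4 did not pass and 3 genes of this list fell.

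**Figure D4:**
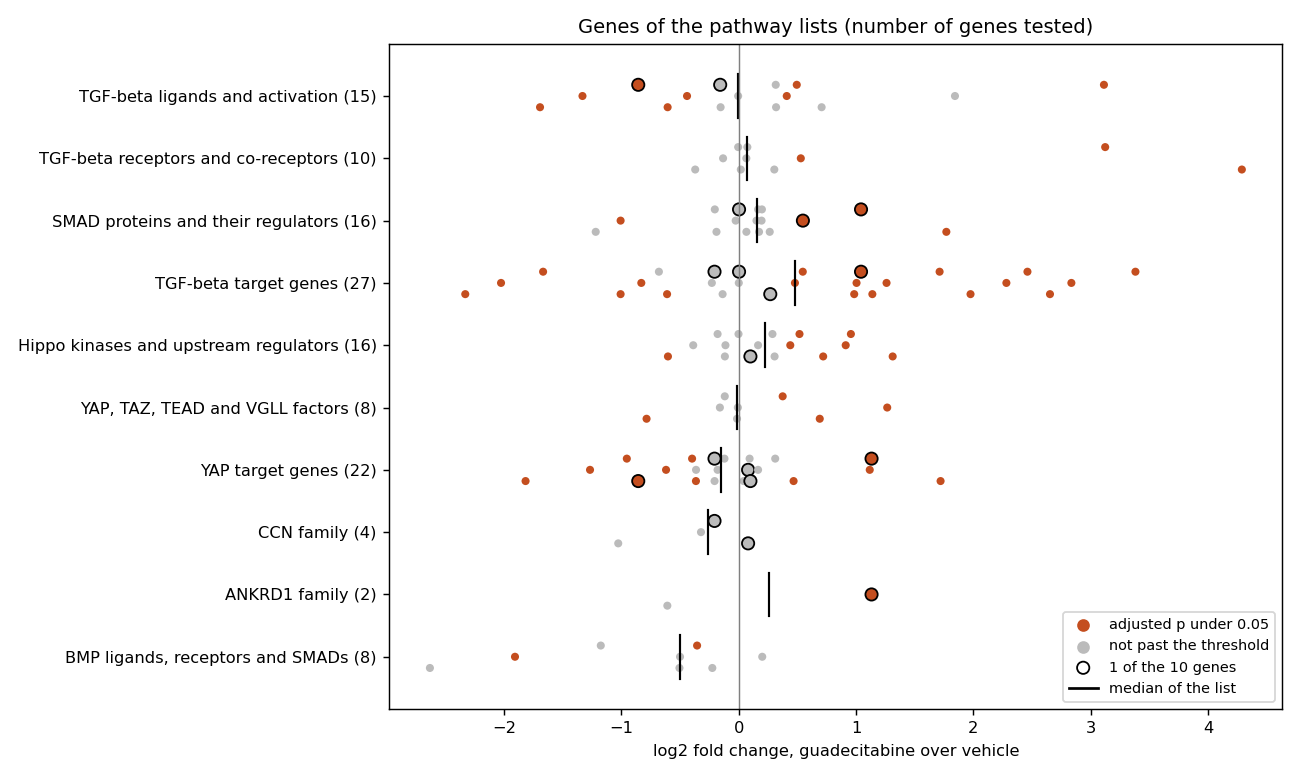
Log2 fold change of guadecitabine over vehicle for each tested gene of the pathway lists, in orange where the adjusted p was under 0.05, with the median of each list as a black line and the 10 genes outlined. TGF-beta targets spread from -2.33 to 3.38, and YAP targets lie on both sides of 0 with a median of -0.15.

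Of 10 receptors and co-receptors tested, 3 rose and 0 fell at an adjusted p of 0.05 in edgeR. ENG (endoglin), a co-receptor known from endothelial cells, rose from 43.2 ± 29.0 to 880 ± 150 normalized counts (SD, n = 3, log2 fold change 4.29, and 5.02 without vehicle replicate 3), and TGFBR3 rose by 0.53 on the log2 scale. CD109, a co-receptor that dampens the signal, had 4, 1 and 74 reads in vehicle and 284, 93 and 159 after guadecitabine, with a log2 fold change of 3.12. It was 6.20 without vehicle replicate 3, and the adjusted p was 0.0504 without guadecitabine replicate 1 and 0.0510 without guadecitabine replicate 3 (edgeR). The signalling receptors did not pass, with log2 fold changes of -0.13 for TGFBR2 (adjusted p = 0.318) and -0.37 for TGFBR1 (adjusted p = 0.105). TGFBR1 passed with -0.51 without vehicle replicate 3 or without guadecitabine replicate 1. The count of receptors that fell was 1 without vehicle replicate 3 or guadecitabine replicate 1. At an unadjusted p of 0.05, 1 receptor was lower in the edgeR test, and DESeq2 called 0 lower.

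Of 16 SMAD proteins and regulators, 3 rose and 1 fell. Beside SMAD3 and SKIL, NEDD4L, a ubiquitin ligase that limits activated SMADs, rose 3.41-fold (log2 fold change 1.77, adjusted p = 2.49e-06 in edgeR). PMEPA1, another feedback inhibitor turned on by TGF-beta, fell to 49.8% of the vehicle level (log2 fold change -1.01, adjusted p = 0.000119 in edgeR). SMAD2 and SMAD4, which act together with SMAD3, had log2 fold changes of -0.03 and -0.20 and did not pass (adjusted p = 0.895 and 0.140 in edgeR). The sign of SMAD2 changed with the scaling.

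Targets of TGF-beta moved in both directions. Of 27 tested, 14 rose and 6 fell, or 13 and 6 of the 23 that were no members. The median log2 fold change of the latter was 0.55, against 0.02 over all genes tested. COL1A1, a fibrillar collagen chain and also on the fibroblast list, rose with a log2 fold change of 3.38 (3.85 without vehicle replicate 3), the sphingosine kinase SPHK1 with 2.83 and the cytokine IL11 with 2.46. SNAI1, a transcription factor of the epithelial-mesenchymal transition, the cell cycle inhibitor CDKN1A and the AP-1 subunit JUNB rose by 1.98, 1.71 and 1.26 on the log2 scale, and the lipase inhibitor ANGPTL4 by 1.00. TAGLN, COL4A1 and TPM1 rose by 0.98, 0.55 and 0.48. COL4A1 did not pass without vehicle replicate 2, nor TPM1 without vehicle replicate 1 or guadecitabine replicate 3. PTHLH, the parathyroid hormone-related protein, rose with 2.28 and 3.04 without vehicle replicate 3. Its adjusted p lay between 0.0544 and 0.109 without vehicle replicate 1 or 2 or guadecitabine replicate 2 or 3. PDGFB, a growth factor, rose with 1.14, but its adjusted p was between 0.0959 and 0.135 without any single library other than vehicle replicate 3 and 0.0915 with the replicate number as a block (edgeR).

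The targets that fell were ID1 and ID3, inhibitors of differentiation that respond mainly to BMP signals, with log2 fold changes of -2.33 and -2.02, the matrix glycoprotein TNC with -1.67, PMEPA1, SNAI2 with -0.83 and fibronectin FN1 with -0.61. FN1 did not pass without vehicle replicate 1 or guadecitabine replicate 1 or 3 (edgeR, adjusted p between 0.0548 and 0.106). ID1 went from 2645, 3047 and 2373 normalized counts in vehicle to 428, 638 and 550. SNAI1 and SNAI2, which encode related repressors, thus moved in opposite directions. In the BMP branch, 0 of 8 tested genes rose and 2 fell at an adjusted p of 0.05 in edgeR, with 0 higher also in DESeq2 and at an unadjusted p of 0.05. The ligand BMP4 fell from 7235 ± 607 to 1933 ± 128 normalized counts (SD, n = 3, log2 fold change -1.90), and the receptor BMPR2 had a log2 fold change of -0.35. BMPR2 did not pass without vehicle replicate 1 or 3 or guadecitabine replicate 2 or 3 (edgeR, adjusted p between 0.102 and 0.138), and with refits the count that fell was between 1 and 3. BMPR1B passed as lower with DESeq2 and without vehicle replicate 1 or 2, and BMPR1A without guadecitabine replicate 1. The reads of BMPR1B were 13, 10 and 162 in vehicle and 13, 4 and 5 after guadecitabine. Its log2 fold change was -2.63, and -0.51 without vehicle replicate 3.

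The effectors of the Hippo pathway showed an unequal picture. YAP1 had 2648, 2354 and 2028 normalized counts in vehicle and 2203, 2235 and 2042 after guadecitabine (log2 fold change -0.12, 95% confidence interval -0.39 to 0.15, adjusted p = 0.472 in edgeR). Its relative TAZ, encoded by WWTR1, fell from 2137, 1979 and 1957 to 1227, 1088 and 1207, without overlap (log2 fold change -0.78, adjusted p = 0.000400 in edgeR). TEAD4 rose with a log2 fold change of 0.69 and TEAD3 with 0.38, the latter not passing without vehicle replicate 1 or guadecitabine replicate 3, while TEAD1 had -0.01 (adjusted p = 0.959 in edgeR), with a sign that changed with the scaling. VGLL3, a TEAD cofactor, rose with 1.27 (1.80 without vehicle replicate 3), with an adjusted p between 0.0583 and 0.0674 without vehicle replicate 1 or 2 or guadecitabine replicate 1 (edgeR). Of these 8 factors, 3 rose and 1 fell, and without vehicle replicate 1 the number that rose was 1.

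Of 16 Hippo kinases and upstream regulators, 6 rose and 1 fell. WWC1 (KIBRA), a scaffold that activates the Hippo kinases, rose 2.48-fold (log2 fold change 1.31, adjusted p = 1.68e-05 in edgeR), and the kinase STK4 and its partner SAV1 rose with 0.96 and 0.91. RASSF1 (0.72), MOB1B (0.52) and FRMD6 (0.44) were the others, of which MOB1B did not pass without vehicle replicate 1 or 2, nor FRMD6 without vehicle replicate 1 or guadecitabine replicate 1 or 3. NF2 (merlin) was the gene that fell, with -0.60, and 0 fell without vehicle replicate 2 or guadecitabine replicate 2, while 2 fell without vehicle replicate 3. LATS2, a kinase that is also a YAP target, had a log2 fold change of 0.17 and did not pass (adjusted p = 0.355 in edgeR).

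Among 22 YAP targets, 4 rose, 7 fell and 11 did not pass, with a median log2 fold change of -0.15, against 0.02 over all genes tested. Besides ANKRD1, the kinase NUAK2 rose 3.30-fold (log2 fold change 1.72) and tissue factor, F3, 2.17-fold (1.12), and GADD45A rose by 0.47 on the log2 scale. Without vehicle replicate 3 the number that rose was 5 and the number that fell 7, since ASAP1 then passed as higher (log2 fold change 0.38, edgeR adjusted p = 0.0334). The receptor tyrosine kinase AXL fell from 25000, 23532 and 20140 normalized counts in vehicle to 8794, 10248 and 9522 (log2 fold change -1.27, adjusted p = 4.44e-05 in edgeR), and the RNA-binding protein RBMS3 fell with -1.81. The other genes that fell were TGFB2, ARHGEF17 (-0.95), CCDC80 (-0.62), MYOF (-0.40) and CRIM1 (-0.36), MYOF not without vehicle replicate 1, and CRIM1 not without that library or guadecitabine replicate 3. Of the rest of the CCN family, NOV (log2 fold change -0.32, adjusted p = 0.287) and WISP2 (-1.03, adjusted p = 0.278) did not pass in edgeR. WISP1 had 86 reads in vehicle replicate 3 and at most 2 in each other library, WISP3 had at most 10, and these were not tested. With 4 of 4 CCN genes not passing at an adjusted p of 0.05, 0 were called by DESeq2 and 0 had an unadjusted p under 0.05.

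The promoter windows of the called members differed in their content of CpG sites, the substrate of the DNA methyltransferases. The SKIL window held 52 CpG sites, more than 99.2% of all windows, and the ANKRD1 window held 5, more than 29.6% of them, beside a median of 14. The TGFB2 window held 14. SMAD3 has 5 windows with 44, 6, 5, 5 and 6 sites. Of the members that did not pass, TGFB1 had 28 sites, TGFBI 27 and CTGF 15, and the windows of SMAD7 and AMOTL2 held between 1 and 37. Methylation was not analysed here.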

How the data were processed

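RNA of MDA-MB-231 cells was sequenced in 3 vehicle and 3 guadecitabine libraries, with groups and replicate numbers taken from the labels. The authors aligned reads to hg19 with STAR 2.3.1z and deposited raw exon counts per RefSeq transcript, made with iRNA-seq. Their regularized log2 values, mean levels, fold changes and p-values stand beside the counts in the deposited table and were not used. Starts were deposited counting from 0 and are printed from 1. The test was the quasi-likelihood test of edgeR 4.0.16 in R 4.3.3, with TMM, filterByExpr at a minimum count of 10, and Benjamini-Hochberg adjustment across all 13322 genes that passed the filter, and an adjusted p under 0.05 was called. DESeq2 1.42.0 was an alternative, and the scripts were tested on simulated counts. Permutation tests used SciPy 1.17.1, and promoter counts and within-library ratios were added after the tests had been chosen. The members and lists were chosen with earlier results of these data known. Named genes were all members, list genes called with a log2 fold change of at least 1 either way, and a set of effectors, of which 1 is not reported here. Overlaps came from GENCODE on GRCh37.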

Additional observations from a re-analysis of the deposited data

How the results depend on the processing

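The 3 members that rose and the 1 that fell kept direction and call in each of 12 alternatives: the replicate block, DESeq2, its size factors, library totals only, no filter, at least 10 counts in every library, and each library left out. The 6 other members did not pass in any of them, and the sign changed for 2 of these. The log2 fold change of SMAD7 was -0.00238 with DESeq2 and -0.00214 with its size factors, and -0.127 to 0.0924 with libraries left out, and that of CYR61 was -0.0333 to 0.200 with libraries left out. Among the other named genes, that of SMAD2 was 0.0113 with library totals only and -0.156 to 0.0469 with libraries left out. That of TEAD1 was 0.0265 with library totals only, 0.00131 with no filter and -0.263 to 0.109 with libraries left out. That of TGFB3 was 0.0329 with the block, 0.0169 with library totals only, 0.0233 with no filter, 4.54e-05 with at least 10 counts in every library and -0.242 to 0.295 with libraries left out. The cause was not tested. Over all genes, with libraries left out, the number higher went from 2576 to between 1706 and 3002 and the number lower from 2446 to between 1629 and 2575, both lowest without guadecitabine replicate 3. With no filter the median log2 fold change of all genes was -0.11. The labels give no shared culture for libraries of the same number, and the correlations of their deviations across genes were -0.05, 0.05 and -0.04, with 1 of the 3 vehicle libraries correlating best with its own number. With the replicate block, 2424 genes were higher and 2230 lower, and 3 members were higher and 1 lower. Depth was least in guadecitabine replicate 2, with 8792127 counts, and the lowest count of a member in any library was 114.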
